A study of Mus musculus with 8 samples.

Results

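Imprinted genes, which are expressed mainly from the chromosome inherited from the mother or mainly from the one inherited from the father, were followed across 8 expression arrays of mouse embryonic fibroblasts. A list of 38 imprinted genes outside the insulin-like growth factor axis was given, and a probe set was taken where the platform annotation gave exactly 1 gene symbol and that symbol was on the list. This found 93 of the 45037 tested probe sets, covering 32 genes of the 18193 with such a probe set. No such probe set was found for Rtl1, Dio3, Zrsr1, Slc22a3 and H19, the last of which shares its probe set with a microRNA gene, or for the symbol Dcn1. By the usual parental origin of their RNA, 15 of the measured genes were grouped as maternally expressed, 16 as paternally expressed, and Gnas makes transcripts of either origin. Whether each gene is imprinted in these fibroblasts was not measured.

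The fibroblasts were of the C57BL/6 strain, lacked Stat5 and had received a mutant STAT5 through a retroviral vector. The EA mutant is labelled as EE to AA in the binding domain, and the YF mutant as Y694F at the phosphorylation site. Cells of each mutant had no stimulation or growth hormone for 120 minutes, which gave 4 groups of 2 arrays that the series text calls biological duplicates. All groups therefore share the Stat5-null background and the vector, and cells with unmutated STAT5 are not analysed here. Whether the arrays of a mutant came from separate infections is not stated, so a difference between infected cultures and a difference between mutants cannot be told apart, and p-values measure the spread between these arrays.

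Imprinted genes lie in clusters in which a differentially methylated control region, marked in the germ line, decides which parental copy is active. Many clusters pair protein-coding genes with a long noncoding RNA of the opposite parental origin, and many imprinted genes act on growth of the embryo and placenta or on adipocyte and muscle differentiation. The arrays measure RNA from both copies together, and the strain is inbred, so the parental copy behind a value was not observed. Values are log2 as deposited. Averaged across all arrays, 55.0% of probe sets lie below 4 in a crowded low group. Its scale is not known, which makes the size of any fold that reaches into it uncertain.

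The promoter windows below run from 250 bases before to 50 after the start in RefSeq's GRCm38.p6 annotation. They are shown for 3 genes of the Dlk1 to Dio3 region and for the genes with the largest difference in each direction. Capitals mark CpG dinucleotides, the STAT5 site TTCNNNGAA and the ZFP57 site TGCCGC on either strand. The Meg3 window shown holds a ZFP57 site and the Rian window a STAT5 site. The windows of Mirg and Dio3, in the same region, hold neither site and are not shown. The windows shown therefore do not represent the region. The Dlk1 window is chr12:109452573-109452872 (+), the Meg3 window chr12:109540746-109541045 (+), the Rian window chr12:109603695-109603994 (+), the Slc22a18 window chr7:143473539-143473838 (+) and the Ppp1r9a window chr6:4903061-4903360 (+).
Dlk1: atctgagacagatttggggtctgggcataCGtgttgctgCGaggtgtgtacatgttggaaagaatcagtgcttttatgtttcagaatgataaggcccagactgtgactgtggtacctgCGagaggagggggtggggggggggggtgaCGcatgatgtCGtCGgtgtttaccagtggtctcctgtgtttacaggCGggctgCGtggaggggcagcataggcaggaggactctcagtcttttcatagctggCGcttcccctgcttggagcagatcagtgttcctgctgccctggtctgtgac
Meg3: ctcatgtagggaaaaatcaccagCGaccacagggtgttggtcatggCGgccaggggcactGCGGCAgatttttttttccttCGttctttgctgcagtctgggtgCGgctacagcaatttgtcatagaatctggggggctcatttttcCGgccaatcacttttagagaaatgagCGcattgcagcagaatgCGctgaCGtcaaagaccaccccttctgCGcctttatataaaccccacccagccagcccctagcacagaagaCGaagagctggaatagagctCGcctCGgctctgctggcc
Rian: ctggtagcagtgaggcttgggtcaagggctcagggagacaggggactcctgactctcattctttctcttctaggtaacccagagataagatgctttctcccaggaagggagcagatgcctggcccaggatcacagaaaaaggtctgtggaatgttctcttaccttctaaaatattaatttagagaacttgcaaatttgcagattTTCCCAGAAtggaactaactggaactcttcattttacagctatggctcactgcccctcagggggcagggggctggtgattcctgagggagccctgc
Slc22a18: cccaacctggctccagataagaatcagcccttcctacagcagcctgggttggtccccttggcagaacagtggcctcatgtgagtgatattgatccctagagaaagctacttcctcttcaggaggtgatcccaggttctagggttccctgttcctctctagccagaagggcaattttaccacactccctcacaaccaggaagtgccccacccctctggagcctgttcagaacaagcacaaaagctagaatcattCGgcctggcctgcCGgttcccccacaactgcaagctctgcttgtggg
Ppp1r9a: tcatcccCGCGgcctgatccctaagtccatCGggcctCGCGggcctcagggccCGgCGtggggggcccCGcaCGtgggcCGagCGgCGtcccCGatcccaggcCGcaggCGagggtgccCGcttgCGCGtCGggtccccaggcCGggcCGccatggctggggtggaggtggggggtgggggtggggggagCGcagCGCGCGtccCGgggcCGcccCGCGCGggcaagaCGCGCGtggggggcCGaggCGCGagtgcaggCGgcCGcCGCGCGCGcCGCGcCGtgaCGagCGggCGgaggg

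ZFP57 is a zinc finger protein that holds methylation at imprinted control regions, and STAT5 proteins bind the palindrome named above. RefSeq windows were matched by symbol for 31 of the 38 listed genes, and the first listed window of a gene was used. The STAT5 site was found in the first window of 1 gene, Rian (3.23%), against 8.47% of the first windows of all 27025 genes. The ZFP57 site was found in the first window of 7 of the 31 genes (22.6%), which were Meg3, Copg2, Grb10, Plagl1, Nnat, Zim1 and Slc22a2, against 11.6% of all genes. The median CpG count was 13 per window against 7 for all genes, and in the windows shown it ran from 0 for Rian to 48 for Ppp1r9a. These are counts of letters in the windows and not measurements of binding or methylation.

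Averaged over the treatments, 14 imprinted genes were higher in EA than in YF cells and 5 were lower, judged by the brightest probe set of each gene and an adjusted p under 0.05 in limma's moderated test. The largest differences were in Slc22a18, a membrane transporter that was 27.9-fold higher in EA cells, and in Ppp1r9a, the actin-binding protein neurabin, which was 9.01-fold lower, although EA values reached into the low group. Higher in EA cells were also Dlk1 with the noncoding RNAs of its region, Cdkn1c, Slc38a4 and Airn. Lower were Ndn, Grb10, Nnat, whose values all lie in the low group, and Ube3a, whose other probe sets did not pass. Neither parental origin moved in a single direction: 7 of 15 maternally expressed genes were higher and 3 lower, and 7 of 16 paternally expressed genes were higher and 2 lower. Of all 18193 genes, 22.9% passed this comparison by their brightest probe set. Among genes with a mean of 4 or more, 18 of 23 imprinted genes passed, against 36.2% of all such genes. Their median EA minus YF change was 0.47 on the log2 scale, against 0.05 for all such genes, and the median size of the change was 0.64 against 0.26. The list was chosen with earlier results of these data known, so the shares here and below describe the list and do not test it.

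**Figure D1:**
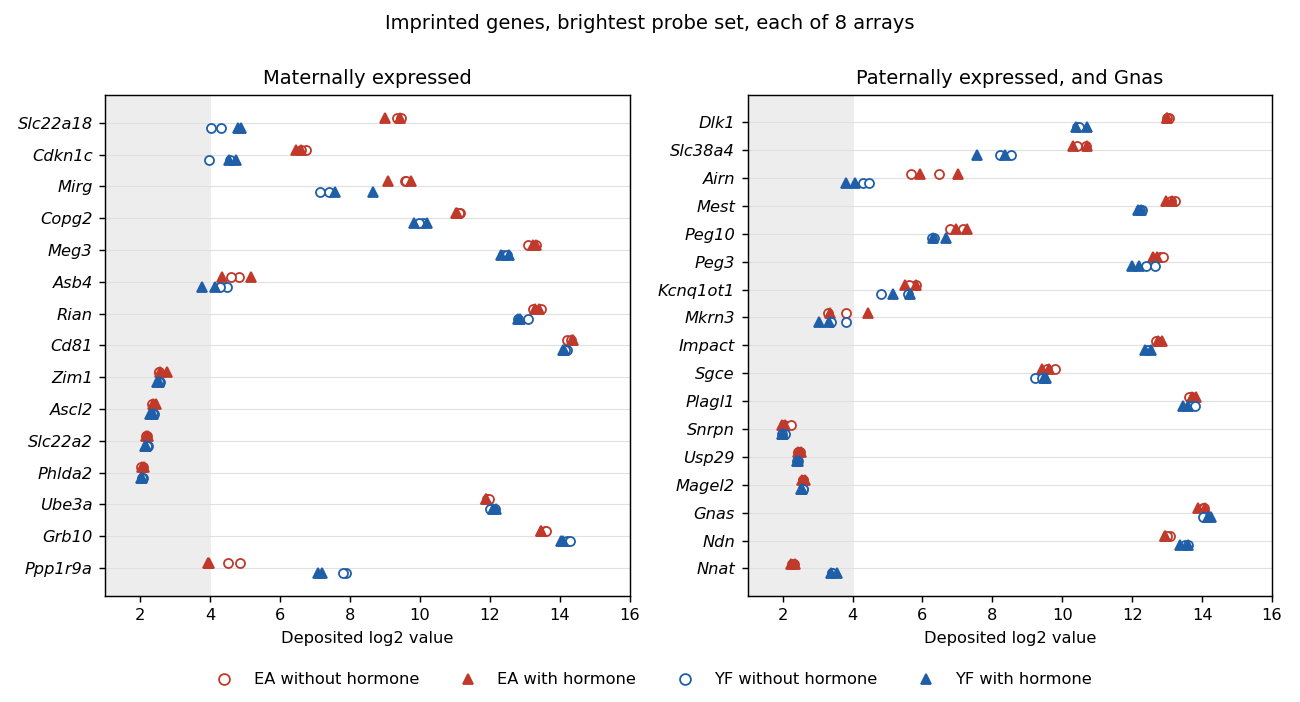
Deposited log2 value of the brightest probe set of each imprinted gene on each of the 8 arrays, with EA in red, YF in blue, open circles without and filled triangles with hormone, and values below 4 shaded. Genes are ordered by their EA minus YF difference, from Slc22a18 and Dlk1 at the top to Ppp1r9a and Nnat at the bottom, and the red and blue points of these genes do not overlap.

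By probe set, 38 of 93 passed in the averaged comparison, 28 higher and 10 lower in EA cells, against 16.5% of all probe sets (8.17% higher and 8.38% lower). Of the 50 with a mean of 4 or more, 33 passed, against 33.8% of all such probe sets. Without hormone 30 of the 93 passed, 21 higher and 9 lower, against 10.8% of all (5.51% higher and 5.25% lower). With hormone 26 passed, 19 higher and 7 lower, against 10.2% (4.37% and 5.80%). These single-treatment comparisons use separate arrays but 1 variance estimate per probe set. Of the imprinted probe sets 23 passed in both, 76.7% of the first list and 88.5% of the second, and all 23 had the same sign. Of all probe sets 3032 passed in both, 62.6% and 66.2% of the lists, and 3020 had the same sign. By gene, 8 were higher and 4 lower without hormone, against 15.0% of all genes, and 10 were higher and 4 lower with hormone, against 13.5%. Leaving out 1 array of the groups compared without hormone lowered the 30 probe sets to 16 (EA replicate 1) or 18 (EA replicate 2, YF replicate 1 or YF replicate 2).

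**Figure D2:**
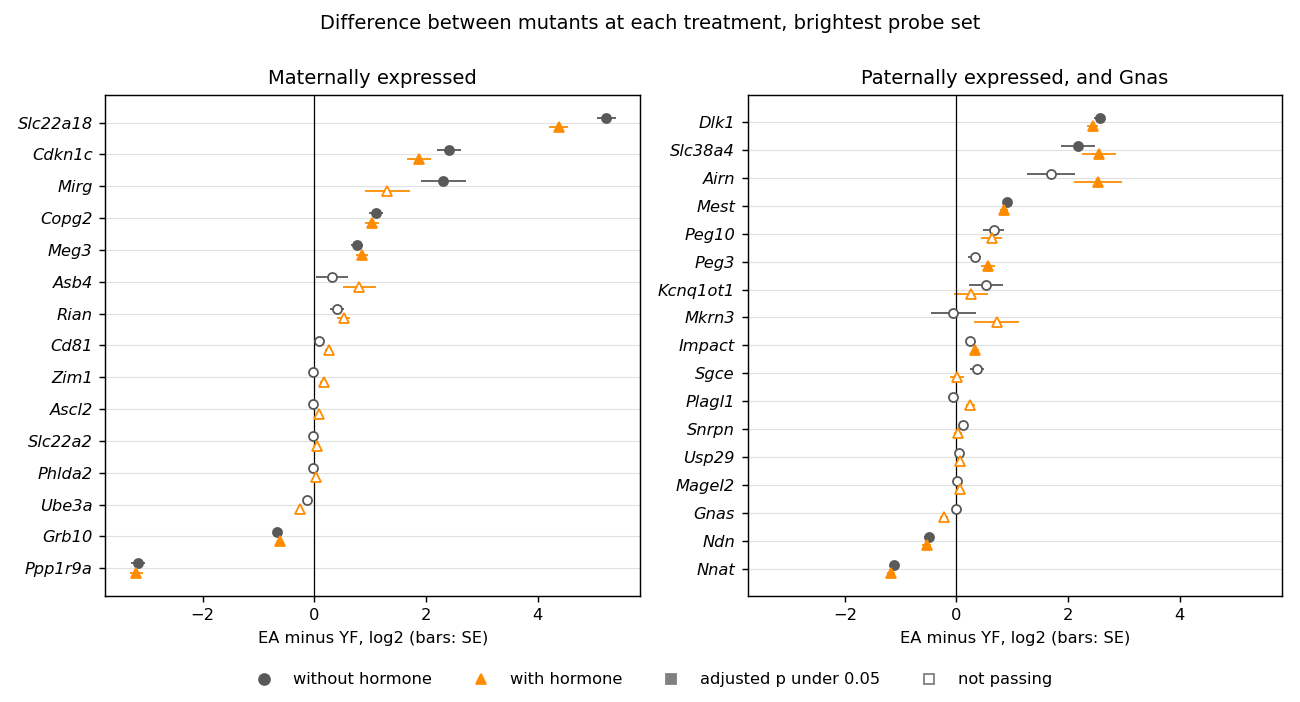
EA minus YF difference in log2 value for the brightest probe set of each imprinted gene, without hormone (grey circles) and with hormone (orange triangles), with bars of 1 SE and filled symbols for adjusted p under 0.05. The differences of Slc22a18, Dlk1 and Ppp1r9a lie far from 0 at both treatments, while those of Zim1, Ascl2, Slc22a2 and Phlda2, which lie in the low group, stay near 0.

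Among maternally expressed genes, those of the Dlk1 to Dio3 region make noncoding RNAs: Meg3 is a long noncoding RNA, Rian hosts small nucleolar RNAs and Mirg hosts microRNAs. All 3 were higher in EA cells in the averaged comparison. The brightest Meg3 probe set read 13.32 and 13.09 in EA, 13.31 and 13.22 in EA with hormone, 12.39 and 12.50 in YF and 12.30 and 12.53 in YF with hormone. Every EA array lay above every YF array, and the averaged difference was 0.81 ± 0.079 (log2, SE, n = 2 arrays per group, limma adjusted p = 0.00253). On the next brightest probe set the values were 12.29 and 12.30 in EA, 12.59 and 12.10 in EA with hormone, 11.19 and 10.98 in YF and 11.45 and 11.38 in YF with hormone, again without overlap (1.07 ± 0.12, adjusted p = 0.00367). Of the 11 Meg3 probe sets, 8 had a mean of 4 or more, and 6 of the 11 passed, all 6 higher in EA cells. Among the 6, the largest difference was on a dim probe set, 2.88 ± 0.36 (adjusted p = 0.00578), with both YF groups in the low group.

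Rian passed on all 4 of its probe sets, with averaged differences of 0.47, 0.89, 1.42 and 1.45. The brightest, which lies near the top of the scale, read 13.46 and 13.23 in EA, 13.29 and 13.41 in EA with hormone, 12.80 and 13.08 in YF and 12.80 and 12.84 in YF with hormone. Its EA arrays lay just above its YF arrays. The dimmest had 3 group means in the low group and overlapping arrays. On the next brightest the values were 10.95 and 10.74 in EA, 10.87 and 11.03 in EA with hormone, 9.48 and 9.73 in YF and 9.05 and 9.53 in YF with hormone. Here every EA array was at least 1 log2 unit above every YF array (adjusted p = 0.00208).

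Mirg passed on both of its probe sets. The brighter read 9.56 and 9.60 in EA, 9.75 and 9.09 in EA with hormone, 7.39 and 7.14 in YF and 8.66 and 7.57 in YF with hormone. All EA arrays were above all YF arrays, but YF with hormone replicate 1 lay closer to EA than its partner, and the averaged difference was 1.81 ± 0.29 (adjusted p = 0.0126). On the second principal component of all probe sets that array lay at -55.8 and its partner at -3.28. The unstimulated YF arrays lay at 25.8 and 32.6. The Mirg difference between mutants with hormone did not pass (1.31 ± 0.41, adjusted p = 0.131). Without YF with hormone replicate 1, which leaves 1 array in that group, it was 1.86.

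Dlk1, a paternally expressed transmembrane protein with EGF-like repeats that restrains adipocyte differentiation, is the protein-coding gene of the region that was measured. It read 13.04 and 12.99 in EA, 12.99 and 12.99 in EA with hormone, 10.42 and 10.49 in YF and 10.70 and 10.39 in YF with hormone. The EA arrays spanned less than 0.1 log2 unit, and all lay more than 2 log2 units above the YF arrays. The averaged difference was 2.50 ± 0.072 (5.66-fold, adjusted p = 6.11e-05), and it was 2.56 without and 2.44 with hormone. The second Dlk1 probe set was also above YF on every EA array and did not pass (1.91 ± 0.51, adjusted p = 0.0648). Over the whole region 13 of 19 probe sets passed, all 13 higher in EA cells, against 16.5% of all probe sets passing and 8.17% higher. Of the region's 15 probe sets with a mean of 4 or more, 11 passed, against 33.8% of all such probe sets. Of the 13, 12 belong to the maternally expressed noncoding RNAs and 1 to Dlk1.

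**Figure D3:**
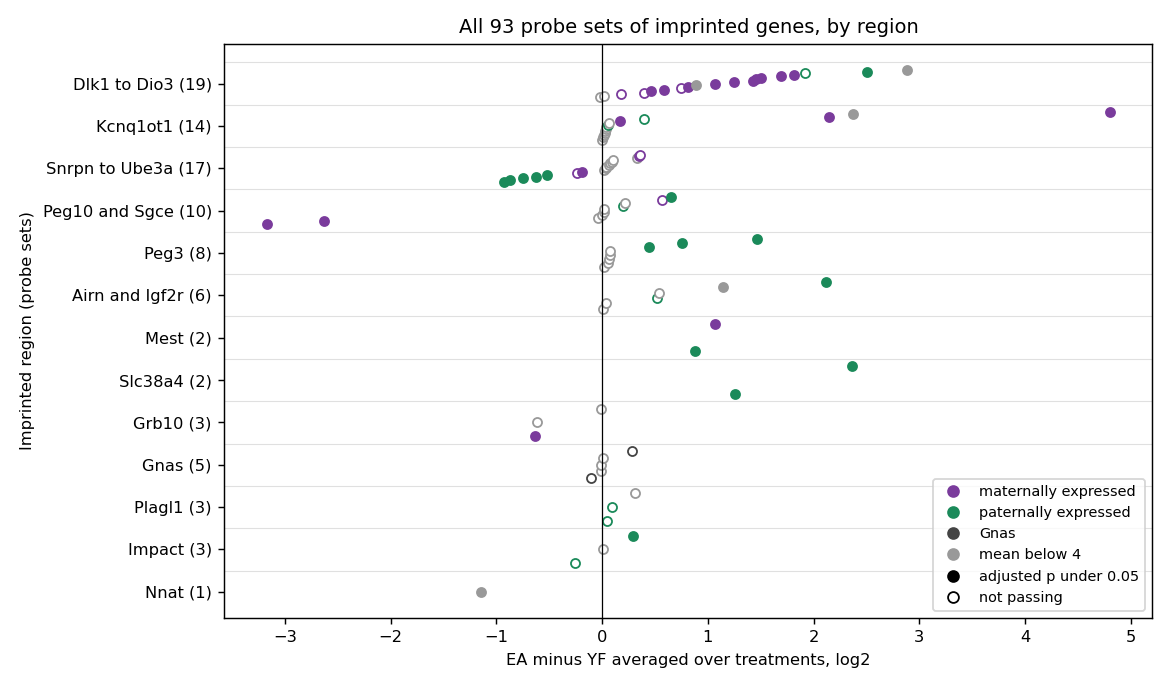
EA minus YF log2 difference averaged over treatments for all 93 probe sets, 1 point each, grouped by imprinted region with the number of probe sets in brackets; colour gives parental origin, grey a mean below 4, and filled points passed. The 13 passing points of the Dlk1 to Dio3 region lie right of 0, and the 6 of the Snrpn to Ube3a region lie left of it.

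In the Kcnq1ot1 region, Cdkn1c encodes the cyclin-dependent kinase inhibitor p57, which holds back cell division, and Slc22a18 a transporter of organic cations. The brightest Slc22a18 probe set read 9.34 and 9.46 in EA, 9.44 and 8.99 in EA with hormone, 4.03 and 4.31 in YF and 4.88 and 4.79 in YF with hormone. All YF arrays were close to the low group and at least 4 log2 units below every EA array. The difference was 5.23 ± 0.17 without hormone, 4.38 ± 0.17 with hormone and 4.80 ± 0.12 averaged (adjusted p = 4.28e-05). The other probe set of the gene gave 2.37 ± 0.098 (adjusted p = 0.000192), where both YF groups were low-group values.

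Cdkn1c read 6.74 and 6.60 in EA, 6.60 and 6.44 in EA with hormone, 3.95 and 4.57 in YF and 4.73 and 4.55 in YF with hormone. The lowest EA array was above the highest YF array by more than 1 log2 unit, and the averaged difference was 2.15 ± 0.15 (4.43-fold, adjusted p = 0.000922). It was 2.41 ± 0.21 without and 1.88 ± 0.21 with hormone, and both passed. Cd81, a tetraspanin of the cell surface, differed little: it read 14.19 and 14.32 in EA, 14.36 and 14.37 in EA with hormone, 14.21 and 14.13 in YF and 14.13 and 14.08 in YF with hormone, and its groups overlapped although it passed (0.17 ± 0.040, adjusted p = 0.0431). Kcnq1ot1, the paternally expressed noncoding RNA that silences the region in cis, did not pass. Its brightest probe set read 5.81 and 5.63 in EA, 5.49 and 5.83 in EA with hormone, 5.58 and 4.80 in YF and 5.15 and 5.63 in YF with hormone, with overlapping groups and an averaged difference of 0.40 (95% interval -0.16 to 0.95). Ascl2, a transcription factor, and Phlda2, which restrains placental growth, both act in the placenta. Their brightest probe sets ran from 2.29 to 2.44 and from 2.02 to 2.09 over the 8 arrays, inside the low group, and did not pass.

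Ppp1r9a had the largest difference among maternally expressed genes that were lower in EA cells. Its brightest probe set read 4.85 and 4.50 in EA, 3.98 and 3.94 in EA with hormone, 7.87 and 7.80 in YF and 7.09 and 7.19 in YF with hormone. Every EA array was below every YF array, by more than 2 log2 units. The difference was -3.16 ± 0.12 without hormone, -3.19 ± 0.12 with hormone and -3.17 ± 0.084 averaged (adjusted p = 4.87e-05), and a further probe set gave -2.63 ± 0.055 (adjusted p = 2.59e-05). On the brightest probe set the EA mean with hormone lies in the low group and the unstimulated EA mean does not, and on the further probe set both EA means do.

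Of its neighbours, Peg10 differed in the opposite direction. Peg10, a paternally expressed gene derived from a retrotransposon and needed in the placenta, read 7.16 and 6.79 in EA, 7.28 and 6.96 in EA with hormone, 6.34 and 6.28 in YF and 6.67 and 6.31 in YF with hormone. The EA arrays lay above the YF arrays, and the averaged difference was 0.65 ± 0.13 (adjusted p = 0.0307). Sgce, which encodes epsilon-sarcoglycan, read 9.80 and 9.57 in EA, 9.63 and 9.41 in EA with hormone, 9.21 and 9.41 in YF and 9.54 and 9.46 in YF with hormone. Its groups overlapped and it did not pass (0.20, 95% interval -0.03 to 0.42). Asb4, a maternally expressed ankyrin repeat protein, read 4.81 and 4.58 in EA, 4.35 and 5.16 in EA with hormone, 4.48 and 4.27 in YF and 3.76 and 4.13 in YF with hormone. It overlapped as well and did not pass (0.56, 95% interval 0.04 to 1.09, adjusted p = 0.162).

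Grb10, an adaptor that inhibits insulin and insulin-like growth factor receptor signalling, read 13.58 and 13.59 in EA, 13.46 and 13.45 in EA with hormone, 14.20 and 14.30 in YF and 14.03 and 14.09 in YF with hormone. All EA arrays were below all YF arrays, and the averaged difference was -0.64 ± 0.033 (adjusted p = 0.000376). Copg2, a coat protein subunit of transport vesicles, lies beside Mest and read 11.14 and 11.13 in EA, 11.04 and 11.06 in EA with hormone, 10.08 and 9.96 in YF and 10.21 and 9.83 in YF with hormone. It was 2.10-fold higher in EA cells (adjusted p = 0.00158). Ube3a, a ubiquitin ligase whose imprinting is known from neurons, read 11.92 and 11.97 in EA, 11.88 and 11.88 in EA with hormone, 12.14 and 12.00 in YF and 12.18 and 12.09 in YF with hormone. Its brightest probe set was slightly lower in EA cells (-0.19 ± 0.043, adjusted p = 0.039), the EA and YF arrays were nearly adjacent, and other Ube3a probe sets above the low group had averaged changes of 0.35, 0.36 and -0.24 and did not pass. Zim1, a zinc finger gene of the Peg3 region, ran from 2.47 to 2.76 and Slc22a2, a cation transporter, from 2.13 to 2.22 over the 8 arrays, both inside the low group.

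Among paternally expressed genes, Slc38a4, an amino acid transporter, differed most after Dlk1. It read 10.67 and 10.42 in EA, 10.31 and 10.72 in EA with hormone, 8.21 and 8.54 in YF and 7.56 and 8.36 in YF with hormone. All EA arrays were above all YF arrays by more than 1 log2 unit. The difference passed at both treatments (2.17 ± 0.31 without and 2.55 ± 0.31 with hormone), and the averaged difference was 2.36 ± 0.22 (adjusted p = 0.0021). Its other probe set was 1.25 ± 0.19 higher in EA cells (adjusted p = 0.0105).

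Airn is a noncoding RNA that silences Igf2r, Slc22a2 and Slc22a3 in cis on the paternal chromosome. Its brightest probe set read 6.48 and 5.68 in EA, 7.02 and 5.93 in EA with hormone, 4.31 and 4.47 in YF and 3.80 and 4.08 in YF with hormone. The EA arrays were spread over more than 1 log2 unit and all lay above the YF arrays, and the averaged difference was 2.11 ± 0.31 (adjusted p = 0.00923) with 1 YF group in the low group. A further probe set passed (1.14 ± 0.22, adjusted p = 0.0251) with both YF groups in the low group, and another did not (0.52 ± 0.18, adjusted p = 0.146).

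Mest, which encodes an enzyme of the alpha/beta hydrolase family, read 13.23 and 13.11 in EA, 12.97 and 13.14 in EA with hormone, 12.29 and 12.24 in YF and 12.18 and 12.24 in YF with hormone. It was 1.84-fold higher in EA cells, with no overlap (adjusted p = 0.000626). Peg3, a zinc finger protein, read 12.79 and 12.89 in EA, 12.72 and 12.60 in EA with hormone, 12.65 and 12.38 in YF and 12.21 and 11.99 in YF with hormone on its brightest probe set. There the groups overlapped slightly, at an averaged difference of 0.45 ± 0.084 (adjusted p = 0.0226). The differences of the other Peg3 probe sets above the low group were 0.76 ± 0.072 (adjusted p = 0.0023) and 1.46 ± 0.094 (adjusted p = 0.00073), without overlap. On the dimmer of these the values were 6.66 and 6.50 in EA, 6.55 and 6.33 in EA with hormone, 5.49 and 5.74 in YF and 4.58 and 4.38 in YF with hormone, so that the YF arrays with hormone lay lowest. Impact, a regulator of the amino acid sensor GCN2, read 12.71 and 12.68 in EA, 12.74 and 12.85 in EA with hormone, 12.46 and 12.44 in YF and 12.37 and 12.54 in YF with hormone. On this brightest probe set it was higher in EA cells, with no overlap, by 0.29 ± 0.050 (adjusted p = 0.0155). The other Impact probe set above the low group went the other way, by -0.25 averaged, with overlapping arrays, and did not pass.

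Plagl1, a zinc finger factor that regulates other imprinted genes, read 13.70 and 13.63 in EA, 13.70 and 13.83 in EA with hormone, 13.67 and 13.78 in YF and 13.44 and 13.60 in YF with hormone. The EA and YF arrays overlapped and it did not pass (0.09, 95% interval -0.05 to 0.23). Gnas, which encodes the stimulatory G protein alpha subunit, ran from 13.89 to 14.25 over the 8 arrays. It did not pass either (-0.11, 95% interval -0.24 to 0.02).

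Ndn, a growth suppressor of the MAGE family from the region that in humans is lost in Prader-Willi syndrome, was lower in EA cells on all 5 of its probe sets above the low group, with averaged differences from -0.92 to -0.52. Its brightest probe set read 13.09 and 13.002 in EA, 12.95 and 12.93 in EA with hormone, 13.50 and 13.59 in YF and 13.36 and 13.59 in YF with hormone. All EA arrays were below all YF arrays (adjusted p = 0.00493). Its neighbours Snrpn, Magel2 and Mkrn3 had means below 4 in every group and did not pass. Snrpn, a splicing protein gene, has 6 more probe sets that carry several symbols and were not used. Its brightest of those used ran from 1.97 to 2.25, Magel2, a MAGE gene like Ndn, from 2.53 to 2.65 and the ring finger gene Mkrn3 from 3.04 to 4.45. Over the Snrpn to Ube3a region 6 of 17 probe sets passed, 5 of Ndn and 1 of Ube3a, all lower in EA cells, against 16.5% of all probe sets passing and 8.38% lower. Of the region's 9 probe sets with a mean of 4 or more, 6 passed, against 33.8% of all such probe sets. Nnat, a small membrane proteolipid, read 2.33 and 2.28 in EA, 2.24 and 2.36 in EA with hormone, 3.41 and 3.42 in YF and 3.37 and 3.57 in YF with hormone. The EA arrays were below the YF arrays (-1.14 ± 0.055, adjusted p = 0.000293), but all 4 group means lie in the low group. Usp29, a deubiquitinase gene of the Peg3 region, lies there too (2.40 to 2.53) and did not pass.

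The smaller calls depended on single arrays, and for Cd81 and Ube3a also on other settings. Cd81 lost its call without any 1 array other than EA replicate 1, with an adjusted p of up to 0.14. It also lost it with median centring (0.0784), with probe sets above the low group alone (0.0981) and with the replicate block (0.0871). Ube3a lost it without either EA array, either EA with hormone array, YF replicate 1 or YF with hormone replicate 1 (up to 0.132), as well as above the low group alone (0.0772), with a variance trend (0.0602) and with the replicate block (0.0613). Peg10 lost it without EA replicate 1, either EA with hormone array, either YF array or YF with hormone replicate 2 (up to 0.0976). Peg3's brightest probe set lost its call without any 1 of the 4 EA arrays or YF replicate 2 (up to 0.0808). The brightest Rian probe set lost it without EA replicate 1, either EA with hormone array or YF with hormone replicate 1 (up to 0.0784), and Impact without either EA array, EA with hormone replicate 2 or either YF array (up to 0.0615). The other 13 genes that passed in the averaged comparison kept their call whichever array was left out.

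Other imprinted genes, listed apart from the members, did not share a direction. Of 24 measured, 3 were higher and 4 lower in EA cells, 29.2% against 22.9% of all genes. Igf2, the fetal growth factor next to H19, had mean values of 14.04 in EA and 6.19 in YF cells without hormone, an averaged difference of 7.50 ± 0.16 (adjusted p = 2.69e-05). Pon3, next to Ppp1r9a and Peg10, was higher by 1.77 ± 0.062, and Igf2r, the target of Airn, by 0.50 ± 0.050. Peg12 (-1.45 ± 0.20), and with an EA side in the low group Ddc (-1.93 ± 0.22), Cobl (-2.91 ± 0.35) and Dcn (-4.45 ± 0.21), were lower in EA cells. Ddc and Cobl are neighbours of Grb10.

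Of 21 measured genes that set or keep imprints, 4 were higher and 1 lower in EA cells, 23.8% against 22.9% of all genes, a share near the background. The de novo DNA methyltransferase Dnmt3a was higher by 0.92 ± 0.11 (adjusted p = 0.00439) and the methylcytosine oxidase Tet2 by 0.98 ± 0.11 (adjusted p = 0.00397). Smaller differences were 0.22 ± 0.026 for the insulator protein Ctcf, 0.19 ± 0.043 for Yy1 and -0.23 ± 0.050 for Uhrf1, which guides maintenance methylation. DNA methylation itself is not analysed here.

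No imprinted gene probe set passed limma's test for growth hormone against none at 120 minutes. In EA cells 0 of 93 passed, against 0.135% of all probe sets, and 3 had an unadjusted p under 0.05 (3.23%, against 5.62% of all probe sets). In YF cells 0 passed, against 0.180%, and 17 had an unadjusted p under 0.05 (18.3%, against 11.4%). The difference between the hormone responses of the mutants passed for 0 (0.0200% of all), and 13 had an unadjusted p under 0.05, against 9.74% of all. The response averaged over mutants passed for 0 (0.211% of all), and 13 had an unadjusted p under 0.05, against 7.85% of all. Without YF with hormone replicate 2, 1 probe set passed in YF cells and 1 for the difference between responses.

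Ppp1r9a, whose values are given above, had the smallest adjusted p of the averaged response among the brightest probe sets, 0.085, at -0.71 ± 0.084. On that probe set its hormone arrays were below its unstimulated arrays in both mutants, with differences of -0.72 in EA and -0.69 in YF cells. The EA mean with hormone lies in the low group there. Without EA replicate 2 the averaged response on that probe set was -0.79. The further Ppp1r9a probe set had EA means of 3.45 without and 3.44 with hormone, both in the low group, and YF means of 6.26 and 5.89. Grb10 was also below its unstimulated values in both mutants, by smaller differences of -0.13 ± 0.047 in EA (adjusted p = 0.764) and -0.19 ± 0.047 in YF cells (adjusted p = 0.273). The dimmest of the 3 Peg3 probe sets above the low group differed by -1.13 ± 0.13 with hormone in YF cells (adjusted p = 0.0871), against -0.13 in EA cells. Slc22a18 differed with hormone by -0.18 ± 0.17 in EA and 0.67 ± 0.17 in YF cells, and the difference of these responses, -0.85 ± 0.24, did not pass (adjusted p = 0.445). On the brightest Dlk1 probe set the hormone difference was -0.03 in EA (95% interval -0.29 to 0.23) and 0.09 in YF cells (-0.16 to 0.35). On the brightest Meg3 probe set it was 0.06 (-0.22 to 0.35) and -0.02 (-0.31 to 0.26). Dimmer probe sets of the Dlk1 to Dio3 region differed more. Of its 19 probe sets, 3 were higher with hormone in YF cells and 0 lower at an unadjusted p under 0.05 in limma's test. In EA cells 0 were higher and 1 lower. These were 15.8% of the region's probe sets in YF cells, against 11.4% of all, and 5.26% in EA cells, against 5.62%. Of all 45037 probe sets, 2922 were higher and 2192 lower in YF cells, and 1085 higher and 1444 lower in EA cells. The region's highest YF difference was 1.60, on a Rian probe set with means of 6.74 without and 8.34 with hormone, and it did not pass.

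**Figure D4:**
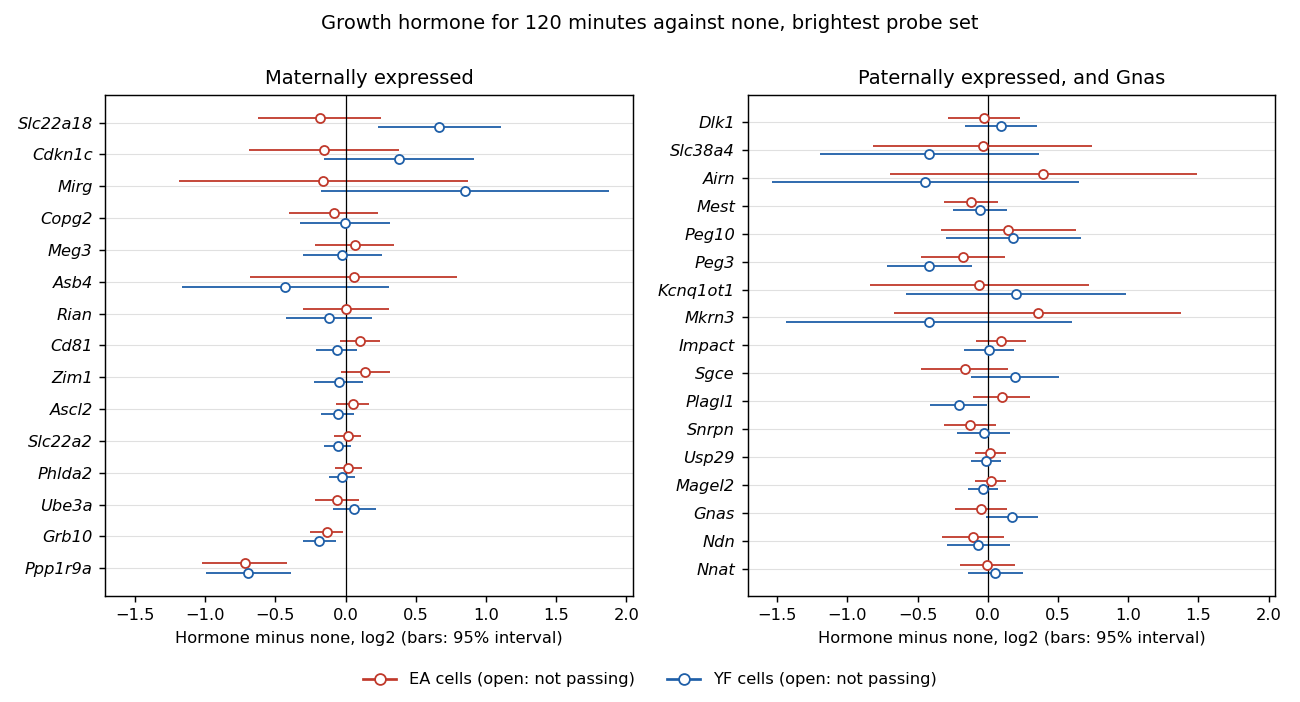
Growth hormone minus none in log2 value for the brightest probe set of each imprinted gene, in EA (red) and YF cells (blue), with 95% intervals; open points did not pass. No point is filled, and Ppp1r9a and Grb10 have intervals below 0 in both mutants.

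The arrays were alike in scale, with medians of 2.85 to 2.94, and the first principal component of all probe sets, 69.9% of the variance, separated EA from YF arrays. Of 10 fibroblast markers, only Lum was below 4 on every array. The mean level of the 10 was 12.2 on every EA array and 12.8 to 12.9 on the YF arrays. In the averaged comparison 5 of them passed, all lower in EA cells, against 22.9% of all genes passing and 1918 of 18193 lower. Of the 9 markers with a mean of 4 or more, 4 passed, against 36.2% of all such genes. The 5 were Thy1 (-4.96 ± 0.089) and, with smaller differences, Lum (-0.92 ± 0.19), Col1a1 (-0.24 ± 0.051), S100a4 (-0.24 ± 0.037) and Fn1 (-0.15 ± 0.025). Of other cell types, all 8 skeletal muscle and all 5 measured trophoblast markers were below 4 on every array, as were 6 of 7 epithelial, 5 of 6 endothelial, 3 of 7 leukocyte, 4 of 8 neural and 2 of 5 adipocyte markers. Ptprc, Epcam, Cdh1, Pecam1 and Adipoq were among those below 4, but other markers of these lists were well above it. In unstimulated EA and YF cells, the adipocyte markers Fabp4 and Pparg had means of 12.3 and 12.1, and 8.87 and 9.35. The neural marker Map2 had 12.4 and 12.7, the endothelial Tek 8.06 and 9.73 and the leukocyte Cd68 11.2 and 7.66. The mean epithelial marker level was 3.37 to 3.50 on EA and 2.51 to 2.72 on YF arrays, where Krt19 differed by 5.20 ± 0.28, and the leukocyte level was 4.92 to 5.15 against 4.30 to 4.66, where Cd68 differed by 3.15 ± 0.15. The well-detected leukocyte marker Csf1r did not pass (-0.38 ± 0.18). Further markers outside the fibroblast list passed in either direction: Nes (1.37 ± 0.15), Cebpa (0.76 ± 0.17) and, in the low group, Krt18 (0.39 ± 0.085) were higher in EA cells, and Tek (-1.58 ± 0.16), Sox2 (-1.47 ± 0.13) and, in the low group, Tubb3 (-1.45 ± 0.17) were lower. The part of such markers in the imprinted gene differences was not tested, and fewer cells of a type cannot be told apart from less RNA per cell.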

How the data were processed

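RNA of 8 samples was measured on Affymetrix arrays, and the authors deposited 1 table of log2 values per probe set. The submitters' processing notes name GCOS and RMA with no version or setting. Medians of these deposited log2 values were alike on all arrays, and they were used as they are. After 64 control probe sets were left out, 45037 remained. A model of 4 group means was fitted to them by lmFit and eBayes of limma 3.58.1 in R 4.3.3 (4 residual and 1.26 prior degrees of freedom). It gave 7 two-sided contrasts, with p-values adjusted by Benjamini-Hochberg over all 45037 probe sets and a threshold of 0.05. All adjusted p-values printed come from this model and its stated variants. SE is the moderated standard error.

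Symbols came from the platform annotation, and the RefSeq table matched 34741 of 34945 probe sets with 1 symbol. The probe set with the highest mean over the 8 arrays stands for its gene, all probe sets of a gene were counted, and every measured member is named. Other lists are given by counts and passing members. The labels do not say that replicate numbers pair arrays, so the model has no replicate block. The replicate 1 minus 2 differences of the groups correlated from -0.30 (unstimulated EA with YF with hormone) to 0.37 (EA with hormone with YF with hormone). These values do not settle whether arrays were paired, and fits with a replicate block are given below. The members and lists were chosen with earlier results of these data known. The fit was tested on simulated data, with 50 changes of each size put in. For hormone in EA cells, 2 changes of 0.5 log2 units, 8 of 1 unit and 29 of 2 units were recovered. For the averaged EA minus YF difference, 4, 23 and 44 were recovered, so changes of these sizes can be missed. Alternatives were normalization, centring, the low group, a variance trend, a replicate block, the groups fitted and each array left out.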

Additional observations from a re-analysis of the deposited data

How the results depend on the processing

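The EA against YF counts of passing imprinted probe sets kept their main direction, more higher than lower, in the alternatives run, and most stayed within 1.5 times the reported count. Fitting only the compared groups lowered the count with hormone from 26 to 16. With each array left out in turn, the count without hormone ran from 16 to 30, that with hormone from 19 to 21 and the averaged count from 31 to 35. Leaving out 1 array gave a range of 0 to 1 for hormone in YF cells (1 without YF with hormone replicate 2), 0 to 1 for the difference in response (without the same array) and 0 to 1 for the averaged response (without EA replicate 2), and the variance trend gave 1 in EA cells. A left-out array leaves 1 array in its group, which is assumed to vary like the others. The replicate block gave 29, 26 and 35 for the 3 EA against YF counts and 0 for each hormone contrast. With the unstimulated EA numbers crossed, chosen after the data were seen, the block gave 33, 34 and 42, and for hormone in YF cells 1.

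Among single gene values that passed in the reported fit or in the alternative, the direction reversed in 19 of 116 values where a dimmer probe set stood in for its gene and in 0 of 675 under the other alternatives, and the cause was not tested. For EA minus YF the 19 were Meg3 at -0.026 without hormone, -0.21 with hormone and -0.023 averaged, Ndn at 0.13, 0.15 and 0.061 with hormone and 0.041, 0.065 and 0.014 averaged, and Ppp1r9a at 0.055 and 0.045 with hormone and 0.014 and 0.016 averaged. Grb10 read 0.010 with hormone, Impact -0.25 averaged and Ube3a 0.35, 0.36, 0.089 and 0.11 averaged. The values of Meg3, Ndn, Ppp1r9a and Grb10, and 0.089 and 0.11 for Ube3a, come from probe sets with a mean below 4. Those of Impact, and 0.35 and 0.36 for Ube3a, come from probe sets above it. Values that passed in neither fit changed sign more often, 146 of 311 with a dimmer probe set and 162 of 2526 otherwise. Among them, a dimmer Impact probe set gave -0.83 without hormone against 0.25, and Airn's hormone difference in EA cells, 0.40, ran from -0.15 to 0.94. Without detection calls, values in the low group set no bound, and 2 arrays per group limit the precision. Median centring moved arrays by at most 0.096.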
